A study of Mus musculus with 69 samples.

Results

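The 33 genes described here make or regulate sterols and fatty acids, and they were chosen by name from the gene symbols of the deposited tables. All 33 were found in each of the 4 tables, which list 55487 genes at 24 h and 53700 at 72 h. They fall into 8 roles: 5 enzymes of the mevalonate steps, 3 that carry isoprenoids to squalene, 10 that carry squalene to cholesterol, 5 regulators, 1 sterol carrier, 4 enzymes of acetyl-CoA supply and fatty acid synthesis, 4 desaturases and 1 enzyme of glycerolipid synthesis. The study asks how single tubule segments of the remaining kidney respond when the other kidney is removed. RNA was measured in tubules microdissected from kidneys of wild-type male C57BL/6 mice, 7 weeks old, in which 1 kidney had been excised (unilateral nephrectomy, UNx) or the operation had been a sham. Tubules were dissected 24 h or 72 h later and were of 2 kinds, proximal tubule S1 (PT-S1) and cortical collecting duct (CCD). PT-S1 at 24 h came from 3 sham and 4 UNx animals, PT-S1 at 72 h from 5 and 5, CCD at 24 h from 4 and 3, and CCD at 72 h from 4 and 4. An animal gave 1 or several libraries, and its value below is the mean over its libraries on the log2(TPM + 1) scale, given as TPM (a share of all transcripts that corrects for gene length). Means ± SD and n are over animals.

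As background, cells make cholesterol from acetyl-CoA through mevalonate, isoprenoids, squalene and lanosterol. When sterols in the endoplasmic reticulum are low, the escort protein Scap carries the membrane-bound factors SREBP-1 and SREBP-2, products of Srebf1 and Srebf2, to the Golgi, where they are cut and released to the nucleus. Insig1 and Insig2 hold Scap back when sterols are plentiful. SREBP-2 is known mainly for the genes of cholesterol synthesis, and SREBP-1 for those of fatty acid synthesis and desaturation, among them the desaturases Fads1 and Fads2, which make long polyunsaturated fatty acids. The proximal tubule is known for burning fatty acids as fuel, and the collecting duct for water and salt transport under hormonal control.

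The dissected segments carried their defining genes. The summed level of 8 markers of proximal tubule S1 and S2 was 12887 to 19687 TPM in PT-S1 animals at 24 h, and 39.6 to 85.9 TPM in CCD animals at that time. The summed level of 7 principal cell markers was 25001 to 66253 TPM in CCD at 24 h and 71.6 to 120.1 TPM in PT-S1. In CCD at 24 h the 6 thick ascending limb markers summed to 1203 to 2546 TPM. The 6 adipocyte markers summed to at most 0.826 TPM in any animal. In the 11 marker lists used here (tubule segments, podocytes, endothelium, leukocytes, fibroblasts and mural cells, adipocytes), 0 genes passed the adjusted test between sham and UNx in any table, with all libraries or without the 5 described next. In bulk tubules, fewer cells of a type and less RNA per cell cannot be told apart.

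Of the 69 libraries, 5 correlated poorly with the rest of their table (median under 0.92), and these stood apart in the 33 genes too. In PT-S1 at 24 h they were 1 library each of sham animals 1 and 3, whose summed level of the 33 genes was 3905 TPM against a mean of 1576 in the other libraries of animal 1, and 646.8 against 1848 in those of animal 3. In PT-S1 at 72 h, 1 library of UNx animal 1 had 294.1 TPM against 1562 in that animal's other library, and 1 library of UNx animal 2 had 351.4 against 1935. All 33 genes were lower in these 2 libraries. In CCD at 72 h, 1 library of sham animal 1 had 927.7 TPM against 1673 in its other library. Each of these animals keeps at least 1 other library, so the results of these 3 tables are given with all libraries and, beside them, without the 5. Marker sums are given with all libraries unless stated. No library of the CCD table at 24 h stood apart.

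**Figure D1:**
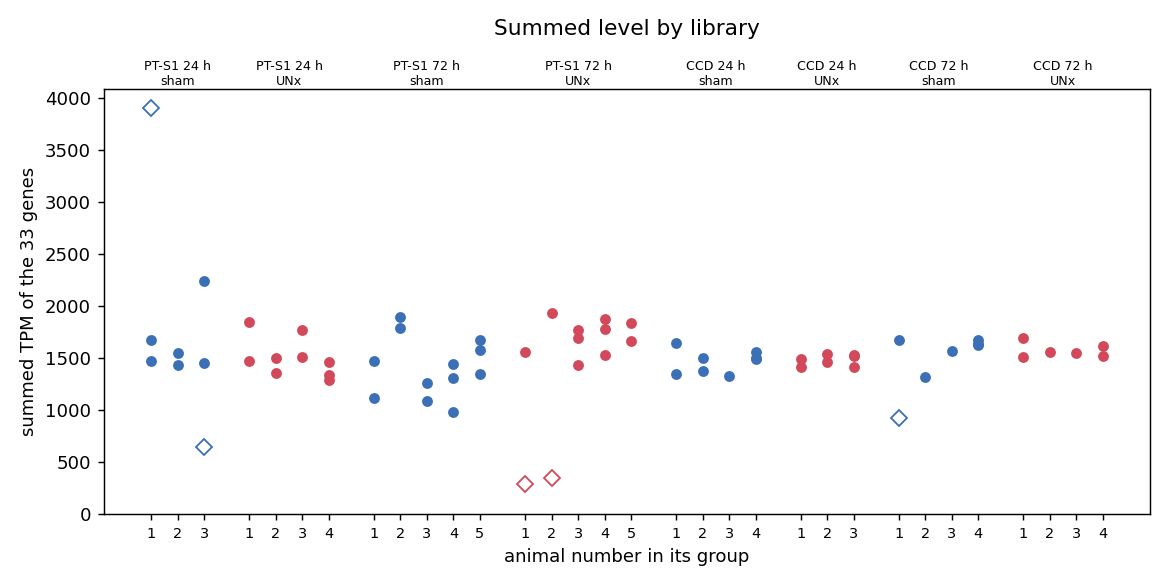
Summed TPM of the 33 genes (vertical axis) in each library, by animal within each segment, time and operation (horizontal axis); blue is sham and red is UNx. Open diamonds are the 5 libraries with a median correlation under 0.92, which range from 294.1 to 3905 TPM.

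In sham animals many of the 33 genes differed in level between the 2 segments, a description from tables made separately, with no test. The share of all genes that separate in this way was not computed, so the counts show no trait particular to the pathway. At 24 h, 16 of the 33 genes had every CCD animal above every PT-S1 animal, 7 had every PT-S1 animal above every CCD animal and 10 overlapped. The 16 include Scd1, at 0.133 TPM in PT-S1 and 0.713 TPM in CCD, below the level tested. At 72 h these counts were 7, 7 and 19. Without the libraries that stood apart, a setting chosen after seeing the data, they were 17, 9 and 7 at 24 h and 10, 7 and 16 at 72 h, where Srebf1, Scap and Acly joined the genes higher in CCD. The 3 highest genes in PT-S1 at 24 h were Hmgcs1, the cytosolic synthase before mevalonate, with 275 ± 144 TPM (n = 3), Acss2, which makes acetyl-CoA from acetate, with 244 ± 60.0 TPM, and Fads2, the delta-6 desaturase, with 159 ± 32.6 TPM. In CCD the highest were Scd2, a stearoyl-CoA desaturase that makes monounsaturated fatty acids, with 301 ± 32.4 TPM (n = 4), Acly, which makes acetyl-CoA from citrate, with 103 ± 15.8 TPM, and Hmgcs1 with 102 ± 14.9 TPM.

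The widest differences between segments were those of the desaturases Scd2 and Fads2. Scd2 stood at 0.278 ± 0.166 TPM in sham PT-S1 against 301 TPM in CCD, a difference of 7.88 in log2(TPM + 1), and Fads2 at 3.64 ± 0.548 TPM in CCD against 159 TPM in PT-S1, a difference of -5.09 (CCD minus PT-S1). At 72 h the same comparison gave 7.51 for Scd2 and -5.19 for Fads2. Fads1, another desaturase, overlapped between the segments at 24 h (-0.73) but was lower in CCD without overlap at 72 h (-1.40). Without the libraries that stood apart it did not overlap at 24 h either. After Scd2, the genes furthest to the CCD side were Elovl6, which elongates C16 fatty acids, with 49.4 ± 4.05 against 7.35 ± 1.20 TPM, and Fdft1, squalene synthase, with 55.9 ± 9.51 against 8.90 ± 1.54 TPM. Without the libraries that stood apart, Pmvk (2.39) came before Fdft1 (2.30). On the PT-S1 side they were Acss2, with 24.1 ± 4.18 TPM in CCD against 244 TPM, and Mvd, the decarboxylase that ends the mevalonate steps, with 6.87 ± 1.27 against 65.3 ± 4.83 TPM. Scd1, the other stearoyl-CoA desaturase listed, averaged at most 0.713 TPM in any sham group and was below the level tested in every table. Scd2 was below it in PT-S1.

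**Figure D2:**
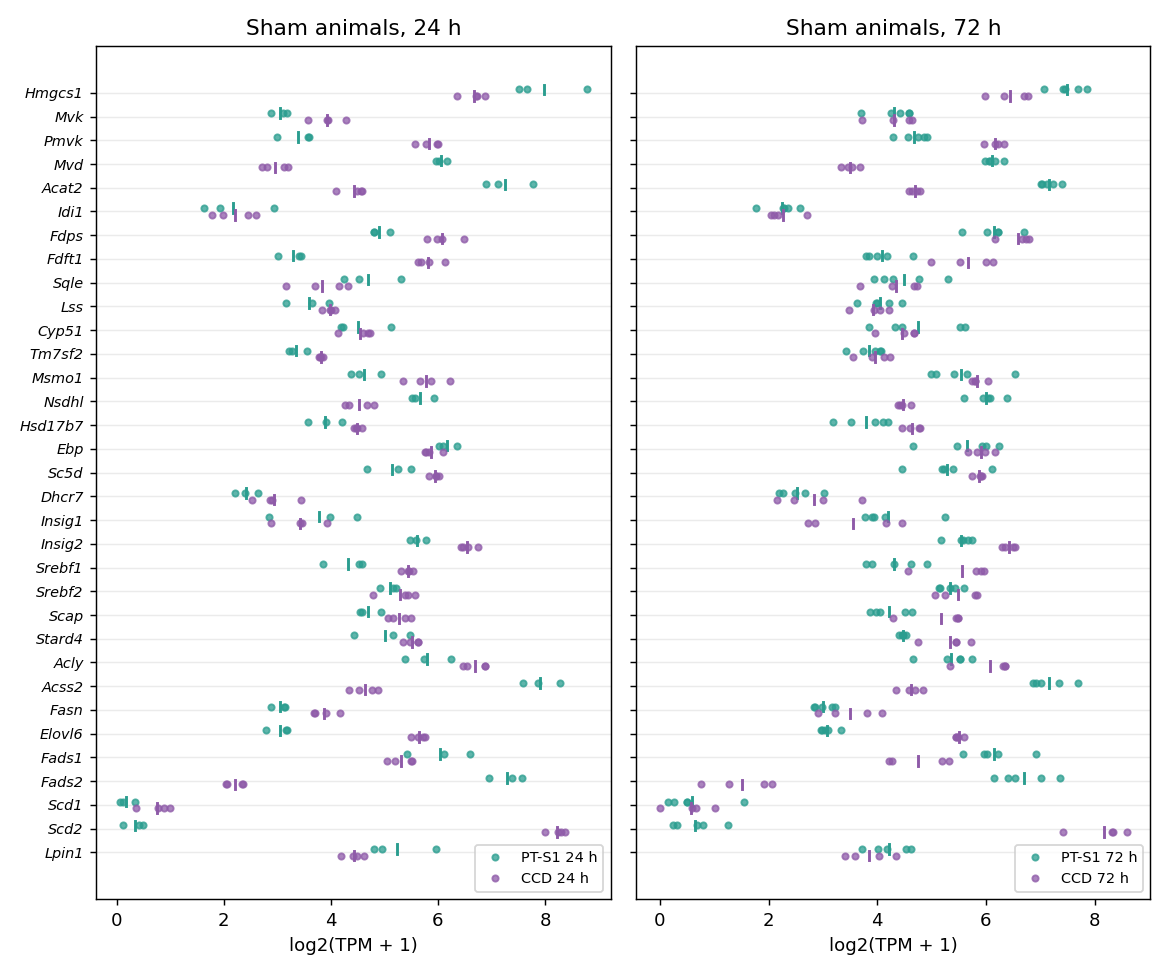
Level of each gene as log2(TPM + 1) (horizontal axis) in sham animals at 24 h (left) and 72 h (right); points are animals and bars are means, green for PT-S1 and purple for CCD. Scd2 sits near 8 in CCD and below 2 in PT-S1, and Fads2 near 7 in PT-S1 and near 2 in CCD.

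Promoter sequence is shown for 3 members, because the SREBP factors act through short elements in promoters. They are Hmgcs1, Insig1, a regulator, and Fads2, which gives the single call below. Hmgcs1 is the only one of the 26 members searched that held the SRE-like motif. The choice was made after the motif search. RefSeq promoter windows of mouse build GRCm38.p6 were at hand for 26 of the 33 genes (34 windows, each from 250 bases before a start to 50 after it). Fdps, Fdft1, Sqle, Stard4, Fads1, Scd1 and Scd2 had no window and were not searched. The SRE-like motif TCACNCCAC was in 1 of the 34 windows, against 1.24% of all 32851 windows. The E-box CACGTG was in 6 of the 34 windows, those of 5 genes (Dhcr7, Hsd17b7, Insig1, Sc5d and Scap), against 7.15% of all windows. CCAAT, the letters of the NF-Y element, was in 22 of the 34 windows, those of 21 genes, against 37.4% of all windows. Both strands were searched. A match describes letters only. The 250 bases before the start are printed 5′ to 3′ on the gene's strand, with the matches to the 3 motifs in capitals. A CCAAT match on the other strand is read here as its reverse complement, as in all 4 CCAAT matches shown. They lie at chr13:119690101-119690350 (plus strand) for Hmgcs1, chr5:28071162-28071411 (plus strand) for Insig1 and chr19:10101504-10101753 (minus strand) for Fads2, all of them just upstream of the annotated transcript start. The Fads2 window holds none of the 3 motifs.
Hmgcs1: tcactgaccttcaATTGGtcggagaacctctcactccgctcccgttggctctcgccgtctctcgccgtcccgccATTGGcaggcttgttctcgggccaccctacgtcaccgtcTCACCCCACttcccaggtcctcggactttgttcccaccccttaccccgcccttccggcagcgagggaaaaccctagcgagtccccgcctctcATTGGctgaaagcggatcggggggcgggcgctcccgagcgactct
Insig1: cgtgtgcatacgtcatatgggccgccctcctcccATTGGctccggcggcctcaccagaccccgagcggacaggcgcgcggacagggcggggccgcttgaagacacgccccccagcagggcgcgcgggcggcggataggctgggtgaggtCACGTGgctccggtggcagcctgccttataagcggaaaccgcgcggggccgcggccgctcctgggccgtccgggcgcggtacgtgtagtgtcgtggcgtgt
Fads2: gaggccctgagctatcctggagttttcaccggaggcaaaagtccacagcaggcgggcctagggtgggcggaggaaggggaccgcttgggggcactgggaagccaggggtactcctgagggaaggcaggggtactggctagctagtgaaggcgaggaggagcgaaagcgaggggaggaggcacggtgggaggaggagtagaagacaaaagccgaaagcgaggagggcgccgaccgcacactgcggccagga

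At 24 h after UNx, no member in PT-S1 passed the adjusted test, and the roles lay on different sides of the bulk of genes. Of 31 members tested, 0 had an adjusted p under 0.05 in limma, against 0 of 11874 genes tested (0%). The median change (UNx minus sham, log2(TPM + 1)) of all genes was -0.19, and changes are therefore also given relative to it. The members' median change was 0.05, and 24 of 31 lay above the median of all genes. All 10 enzymes from squalene to cholesterol lay above it, with a median of 0.54 relative to it, as did the 3 isoprenoid enzymes and 4 of the 5 mevalonate enzymes. Without the 2 libraries of sham animals 1 and 3 these counts were 9 of 10 (all but Dhcr7, at -0.07), 3 of 3 and 5 of 5. The relative median from squalene to cholesterol was then 0.41, and that of the isoprenoid enzymes 0.21 in place of 0.41. With all libraries, the desaturases Fads1 and Fads2, the regulators Srebf1 and Scap, Lpin1, Elovl6 and Acat2 lay below the median of all genes. The counts depend on the filter. With TPM above 0 in at least 3 animals, all genes had a median of -0.06, and 18 members lay above it and 15 below. At an unadjusted p under 0.05, 2 members were higher (2.59% of all genes) and 3 were lower (15.2% of all genes). Every UNx animal lay above every sham animal for 0 members (2.79% of all genes) and below for 2, Fads2 and Lpin1 (12.1% of all genes).

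The members ranked 1 to 5 by p in PT-S1 at 24 h came from both sides of the median change of all genes (-0.19). Fads2 stood at 187.9, 165.0 and 123.6 TPM in sham animals 1 to 3 and at 118.5, 107.5, 93.9 and 109.4 TPM in UNx animals 1 to 4. Every UNx animal was below every sham animal, with a change of -0.54 (SE 0.18, adjusted p = 0.254 by limma). Msmo1, which removes the methyl groups at C4 of the sterol ring, stood at 22.1, 29.8 and 19.7 TPM in sham and at 44.8, 26.6, 41.9 and 36.1 TPM in UNx. Its UNx values were higher apart from animal 2, with a change of 0.62 (SE 0.22, adjusted p = 0.254). Ebp, the isomerase that shifts the sterol double bond from delta-8 to delta-7, stood at 64.3, 81.1 and 67.4 TPM in sham and at 142.9, 101.9, 126.6 and 72.6 TPM in UNx. UNx animal 4 overlapped the sham range, and the change was 0.60 (SE 0.23, adjusted p = 0.255). Srebf1 stood at 22.1, 23.0 and 13.5 TPM in sham and at 12.1, 11.5, 16.5 and 11.4 TPM in UNx, a change of -0.55 (SE 0.22, adjusted p = 0.267). Its groups overlapped through sham animal 3 and UNx animal 3. Lpin1, a phosphatidate phosphatase of glycerolipid synthesis that also acts as a coregulator in the nucleus, stood at 61.1, 30.2 and 27.1 TPM in sham and at 26.1, 21.1, 27.0 and 20.5 TPM in UNx. Its groups did not overlap, but the ranges nearly touched, and the change was -0.63 (SE 0.26, adjusted p = 0.271).

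Without the 2 libraries of sham animals 1 and 3, Fads1, Fads2, Srebf1 and Lpin1 were each below sham in every UNx animal in PT-S1 at 24 h, still short of the adjusted threshold. Fads2 then stood at 158.3, 165.0 and 188.9 TPM in sham (171 ± 16.1, n = 3) against 107 ± 10.2 in UNx (n = 4), a change of -0.67 (SE 0.13, adjusted p = 0.0793). Fads1, the delta-5 desaturase, stood at 60.4, 68.0 and 66.9 TPM in sham and at 47.5, 44.2, 42.9 and 45.9 TPM in UNx, a change of -0.52 (SE 0.11, adjusted p = 0.0848). With all libraries its sham animal 3 was at 41.7 TPM, below all UNx animals. Srebf1 gave -0.62 (SE 0.17, adjusted p = 0.101) and Lpin1 -0.57 (SE 0.16, adjusted p = 0.102). These 4 of the 31 members tested had every UNx animal below every sham animal. That is a smaller share than the 21.5% of all genes so placed without the libraries. The differences of the other named members were smaller: Msmo1 gave 0.36 (adjusted p = 0.242) and Ebp 0.47 (adjusted p = 0.235). The members' median change moved to -0.08, with that of all genes at -0.21 and 21 of 31 above it. Without the 2 libraries the proximal S1 and S2 markers summed to 19172 to 19845 TPM in sham and 12887 to 17955 TPM in UNx, without overlap, and 3 of these 8 markers were lower at an unadjusted p under 0.05; their part in these values was not tested.

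The regulators other than Srebf1 had overlapping groups in PT-S1 at 24 h. Srebf2 stood at 33.5 ± 3.67 TPM in sham (n = 3) and 31.5 ± 6.99 in UNx (n = 4), a change of -0.10 (SE 0.19). Scap stood at 25.0 ± 4.05 and 20.9 ± 10.6 TPM, a change of -0.36 (SE 0.32). Insig1, itself a well-known target of SREBP, stood at 14.1 ± 7.66 and 13.4 ± 2.29 TPM, a change of 0.06 (SE 0.34), and Insig2 at 48.3 ± 5.26 and 50.7 ± 3.16 TPM, a change of 0.07 (SE 0.15). Their adjusted p-values (limma) ran from 0.528 to 0.930. Without the 2 libraries Srebf2 gave -0.27 (37.7 ± 1.91 TPM in sham; adjusted p = 0.329), Scap -0.40 (adjusted p = 0.439), Insig1 -0.09 (adjusted p = 0.729) and Insig2 -0.05 (adjusted p = 0.816), so that Insig1 and Insig2 changed sign. The summed level of 6 markers of the neighbouring S3 segment was 1223 to 2032 TPM in these sham animals and 1347 to 3697 TPM in UNx animals; its part in the values of the 33 genes was not tested.

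At 72 h the PT-S1 values depended on the 2 UNx libraries that stood apart. With all libraries, 0 of 31 members passed the adjusted test, against 0 of 11886 genes (0%). At an unadjusted p under 0.05, 0 members were higher (1.33% of all genes) and 0 were lower (19.1% of all genes), and groups did not overlap for 0 members above (0.236% of all genes) and 0 below (5.33% of all genes). The members' median change was -0.16 beside -0.29 for all genes, and 21 of 31 lay above the median of all genes. With a filter of TPM above 0 in at least 3 animals the side turned: all genes had a median of -0.07, the members -0.17, and 10 of 33 lay above. Without the 2 libraries, the members' median change was 0.27 beside -0.02 for all genes, 27 of 31 members had a higher mean in UNx and 28 lay above the median of all genes. Then 13 members were higher at an unadjusted p under 0.05, against 9.6% of all genes, and 0 were lower, against 8.1%. None of the 13 passed the adjusted test (smallest adjusted p of a member 0.191, for Dhcr7, which makes cholesterol in the last step from 7-dehydrocholesterol). The 13 were Fads1, Fads2, Sqle, Tm7sf2, Ebp, Nsdhl, Msmo1, Sc5d, Dhcr7, Acat2, Elovl6, Insig2 and Scap, of which 7 are enzymes from squalene to cholesterol. In the same setting the proximal S1 and S2 markers summed to 14307 to 20001 TPM in sham and 22932 to 24693 TPM in UNx, without overlap, and 5 of the 8 were higher at an unadjusted p under 0.05. The mitochondrial share of TPM, averaged over all of an animal's libraries, was 11.8% and 16.7% in sham animals 1 and 3 and 4.51% to 9.17% in the other 8 animals of the table. Without the 2 libraries, the share was 10.9% in UNx animal 1 and 4.90% in UNx animal 2. Fads2 was lowest in sham animals 1 and 3 among the sham animals. The 33 genes summed to 1299, 1845, 1178, 1249 and 1538 TPM in sham animals 1 to 5, averaged over libraries. The mitochondrial shares of these animals, in the same order, were 11.8%, 5.45%, 16.7%, 7.76% and 5.09%. The part of the markers and of the mitochondrial share in the result was not tested.

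With all libraries, the members ranked 1 to 5 by p in PT-S1 at 72 h were Fasn, Mvk, Lss, Ebp and Pmvk. Fasn, the fatty acid synthase, stood at 6.19, 6.88, 8.32, 7.94 and 6.18 TPM in sham animals 1 to 5 and at 1.84, 2.86, 6.78, 4.98 and 7.67 TPM in UNx animals 1 to 5, a change of -0.59 (SE 0.28, adjusted p = 0.251 by limma). UNx animals 1 and 2, which hold the libraries that stood apart, were the lowest, and without those libraries the change was -0.18 (adjusted p = 0.505). Mvk, mevalonate kinase, stood at 20.3, 23.1, 23.0, 18.1 and 12.1 TPM in sham and at 8.74, 8.43, 14.9, 18.2 and 17.4 TPM in UNx, a change of -0.52 (SE 0.26, adjusted p = 0.254), and of -0.19 without the libraries (adjusted p = 0.578). Lss, which closes the sterol rings to lanosterol, stood at 14.8, 20.9, 17.5, 14.9 and 11.3 TPM in sham and at 5.49, 7.13, 15.5, 14.5 and 15.6 TPM in UNx. Its change of -0.50 (SE 0.29, adjusted p = 0.293) turned to 0.03 without the libraries (adjusted p = 0.943). Ebp stood at 43.2, 62.7, 24.4, 59.5 and 74.6 TPM in sham and at 52.5, 66.4, 81.7, 65.7 and 78.6 TPM in UNx, a change of 0.46 (SE 0.27, adjusted p = 0.306), and of 0.54 without the libraries (adjusted p = 0.277). Pmvk, phosphomevalonate kinase, stood at 29.2, 28.1, 25.9, 22.7 and 18.5 TPM in sham and at 15.2, 18.1, 18.1, 24.6 and 23.4 TPM in UNx, a change of -0.31 (SE 0.19, adjusted p = 0.306), and of -0.22 without the libraries (adjusted p = 0.462). Groups overlapped for each of the 5. With all libraries the median change of all genes was -0.29, so the Pmvk change was near that of genes in general.

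The desaturases show how far the 2 libraries carry the result at 72 h. Fads2 stood at 83.3, 163.9, 69.8, 92.02 and 128.2 TPM in the sham animals and at 43.5, 49.9, 154.9, 143.6 and 160.2 TPM in the UNx animals, a change of -0.10 (SE 0.40, adjusted p = 0.878 by limma). Without the libraries UNx animals 1 and 2 stood at 139.9 and 158.0 TPM, and the change was 0.56 (SE 0.19, adjusted p = 0.209). All 5 UNx animals then lay between 139.9 and 160.2 TPM, and of the sham animals only animal 2 reached that range or above. Fads1 gave -0.13 (SE 0.38) with all libraries and 0.52 (SE 0.19, adjusted p = 0.216) without them. Tm7sf2, a sterol delta-14 reductase, was the only member whose groups did not overlap without the libraries, at 13.6 ± 2.60 TPM in sham and 17.6 ± 0.811 in UNx (n = 5 each; 1.54% of all genes had every UNx animal above).

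The regulators in PT-S1 at 72 h followed the same libraries. Srebf1 gave a change of -0.07 (SE 0.29) with all libraries and 0.34 (SE 0.20) without them, Srebf2 -0.30 (SE 0.28) and 0.25 (SE 0.12), and Scap -0.16 (SE 0.30) and 0.38 (SE 0.17). Insig1 gave -0.12 (SE 0.34) and 0.57 (SE 0.27), and Insig2 -0.04 (SE 0.24) and 0.27 (SE 0.11). All 5 changed sign, and their adjusted p-values (limma) without the libraries ran from 0.243 to 0.391. With all libraries the Srebf2 change was near the median change of all genes (-0.29). In the animals at this time the principal cell markers summed to 69.8 to 78.8 TPM in sham and 95.6 to 108.4 TPM in UNx, without overlap; their part in these values was not tested.

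**Figure D3:**
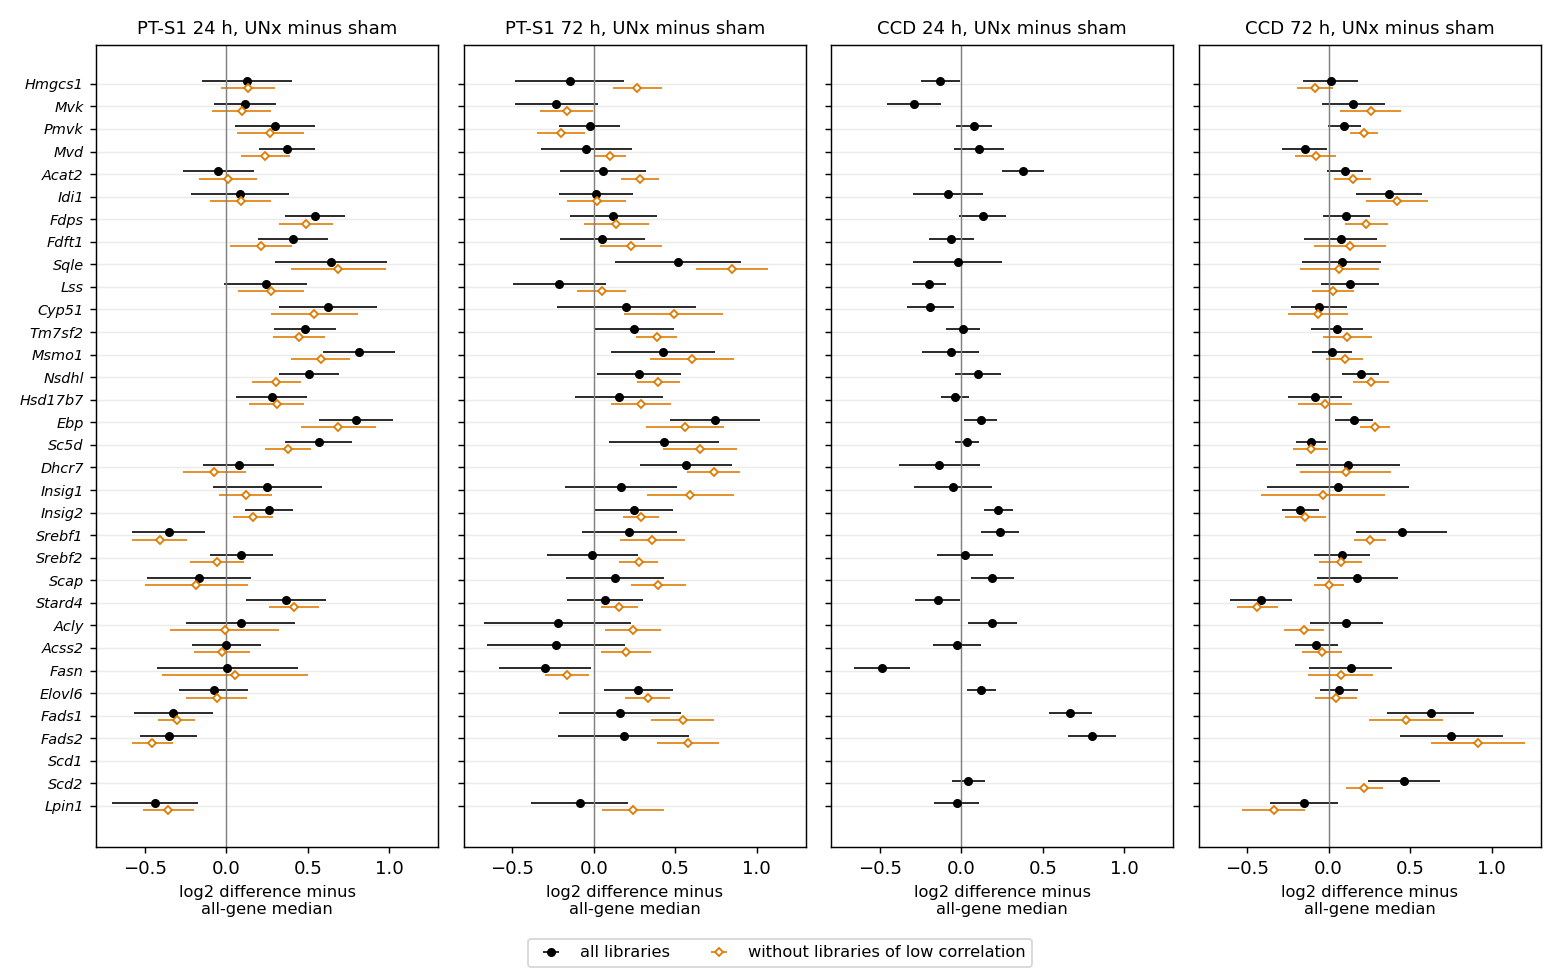
Change of each gene (UNx minus sham, log2(TPM + 1)) minus the median change of all genes tested (horizontal axis), with its SE, in the 4 comparisons; black points use all libraries and open orange diamonds leave out the libraries of low correlation. Fads2 lies at -0.35 in PT-S1 and at 0.80 in CCD at 24 h.

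In the collecting duct at 24 h the smallest p-values among the members were those of the desaturases Fads2 and Fads1, with higher means in UNx where PT-S1 had lower ones, and none passed the adjusted test. Of 32 members tested, 0 had an adjusted p under 0.05, against 136 of 13775 genes (0.987%). At an unadjusted p under 0.05, 3 members were higher (5.55% of all genes) and 1 was lower (9.97%). Every UNx animal lay above every sham animal for 3 members (5.55% of all genes) and below for 2 (9.51%). The members' median change was -0.02 beside -0.04 for all genes, and 17 of 32 lay above it.

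Fads2 in CCD at 24 h stood at 3.15, 4.17, 3.19 and 4.06 TPM in sham animals 1 to 4 and at 6.44, 6.37 and 7.79 TPM in UNx animals 1 to 3. Every UNx animal was above every sham animal, with a change of 0.76 (SE 0.15, adjusted p = 0.0557 by limma). Fads1 stood at 35.8, 44.8, 32.1 and 44.0 TPM in sham and at 55.7, 59.1 and 67.7 TPM in UNx, again without overlap, a change of 0.63 (SE 0.13, adjusted p = 0.0676). The 8 proximal S1 and S2 markers summed to 40.5 to 85.9 TPM in these sham animals and 39.6 to 68.9 TPM in UNx animals. None of the 5 tested had an unadjusted p under 0.05 by limma. At that level 4 of 6 proximal S3 markers were lower in UNx and 3 of 7 principal cell markers were higher. Of the 6 thick ascending limb markers, 2 were lower, with sums of 1203 to 2546 TPM in sham and 1728 to 1954 TPM in UNx. In the lists of distal convoluted tubule and intercalated cells, 1 marker each was higher. The part of these markers in the Fads2 and Fads1 values was not tested. Fads2 and Fads1 each passed the threshold in 5 of 10 other settings and missed it in 5. Quantile normalization was among those passed (adjusted p = 0.0296 for Fads2 and 0.0440 for Fads1 by limma). In those missed, adjusted p reached 0.197 for Fads2 and 0.196 for Fads1. The 10 include a fit with every library as a replicate, which treats libraries of 1 animal as independent. They also include a fit on libraries with a random effect of animal. Neither gene passed in any of the 7 fits that left out 1 animal (adjusted p from 0.0790 to 0.151 for Fads2 and from 0.0759 to 0.190 for Fads1).

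Fasn stood at 14.1, 11.8, 12.0 and 17.1 TPM in sham CCD animals and at 7.14, 10.1 and 10.6 TPM in UNx animals at 24 h. All UNx animals were lower, with a change of -0.52 (SE 0.17, adjusted p = 0.189 by limma). Acat2, a cytosolic thiolase that joins 2 acetyl-CoA before the mevalonate steps, stood at 22.9, 21.4, 16.2 and 22.7 TPM in sham and at 26.6, 27.5 and 25.0 TPM in UNx, a change of 0.34 (SE 0.13, adjusted p = 0.249) without overlap. Mice carry a close copy of Acat2, Acat3, and reads of such copies can be split between them, so its values are uncertain. Lss stood at 14.9, 15.9, 13.3 and 14.97 TPM in sham and at 12.5, 11.5 and 13.2 TPM in UNx, a change of -0.24 (SE 0.10, adjusted p = 0.323), the groups just apart.

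Among the regulators in CCD at 24 h, Srebf1 stood at 42.4 ± 2.92 TPM in sham (n = 4) and 49.3 ± 8.46 in UNx (n = 3), a change of 0.20 (SE 0.12), and Insig2 at 93.2 ± 9.70 and 106 ± 3.81 TPM, a change of 0.19 (SE 0.09). Scap gave 0.15 (SE 0.13), Srebf2 -0.01 (SE 0.17) and Insig1 -0.09 (SE 0.24). Their adjusted p-values (limma) ran from 0.357 to 0.981. Scd2, the most abundant member, was level, at 301 ± 32.4 and 301 ± 23.9 TPM (change 0.01, SE 0.10). In the same animals, 4 of 6 proximal S3 markers were lower at an unadjusted p under 0.05. The 6 summed to 133.6 to 170.1 TPM in sham and 77.2 to 140.9 TPM in UNx. Of the thick ascending limb markers 2 of 6 were lower. Of the principal cell markers 3 of 7 were higher, and the 7 summed to 25001 to 50418 and 48003 to 66253 TPM. The part of these markers in these results was not tested.

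At 72 h in CCD with all libraries, Fads2 and Fads1 again had the smallest p of the members, and again in the higher direction. Of 32 members, 0 passed the adjusted test, against 82 of 13770 genes (0.595%). At an unadjusted p under 0.05, 2 were higher (4.66% of all genes) and 0 were lower (2.82%), and groups did not overlap for 0 members above (3.23%) and 0 below (1.54%). The members' median change was 0.10 beside 0.01 for all genes, and 24 of 32 lay above it. Without the library of sham animal 1 the medians were 0.0017 and -0.07, and 21 of 32 lay above. Then Fads2 and Ebp were higher at an unadjusted p under 0.05 (5.53% of all genes) and Stard4 was lower (8.64%), while Fads1 no longer met it. The smallest p of the members was then that of Stard4. Ebp had every UNx animal above every sham animal (3.78% of all genes), at 57.6 ± 5.82 TPM in sham and 66.6 ± 2.52 in UNx (change 0.21, SE 0.09, adjusted p = 0.346 by limma).

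Fads2 in CCD at 72 h stood at 3.20, 1.42, 0.690 and 2.78 TPM in sham animals 1 to 4 and at 2.35, 4.36, 4.54 and 4.40 TPM in UNx animals 1 to 4, overlapping through UNx animal 1. The change was 0.76 (SE 0.31, adjusted p = 0.606 by limma) with all libraries and 0.84 (SE 0.29, adjusted p = 0.237) without that library. Fads1 stood at 17.6, 18.3, 38.8 and 35.4 TPM in sham and at 32.4, 38.4, 50.2 and 43.8 TPM in UNx, a change of 0.64 (SE 0.27, adjusted p = 0.615), and of 0.40 without the library (adjusted p = 0.455). Sham animals 1 and 2 were the low ones. Scd2 stood at 170.1, 321.2, 317.3 and 386.1 TPM in sham and at 393.1, 353.3, 411.9 and 435.5 TPM in UNx, a change of 0.47 (SE 0.22, adjusted p = 0.693) that was 0.15 (adjusted p = 0.594) without the library, which belongs to the lowest animal.

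Stard4, which carries cholesterol between membranes, was the member nearest the adjusted threshold in CCD at 72 h once that library was left out. It stood at 25.8, 42.7, 51.9 and 42.6 TPM in sham and at 29.2, 31.5, 31.8 and 26.4 TPM in UNx, a change of -0.40 (SE 0.19, adjusted p = 0.700 by limma). Without the library sham animal 1 stood at 35.05 TPM, every UNx animal was below every sham animal (4.86% of all genes), and the change was -0.51 (SE 0.13, adjusted p = 0.120). Idi1, which isomerizes isopentenyl diphosphate, stood at 3.29, 3.14, 3.52 and 5.55 TPM in sham and at 5.53, 6.36, 4.20 and 5.07 TPM in UNx, a change of 0.38 (SE 0.20, adjusted p = 0.756), and of 0.35 without the library (adjusted p = 0.438). Of the regulators, Srebf1 gave 0.46 (SE 0.28), Scap 0.19 (SE 0.25), Srebf2 0.09 (SE 0.17), Insig1 0.07 (SE 0.43) and Insig2 -0.16 (SE 0.11). Without the library these were 0.18, -0.07, 0.0023, -0.11 and -0.21. Sham animal 1 was the lowest for Srebf1 and Scap, at 22.8 and 18.5 TPM against 55.6 to 61.7 and 42.6 to 43.8 TPM in the other sham animals.

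**Figure D4:**
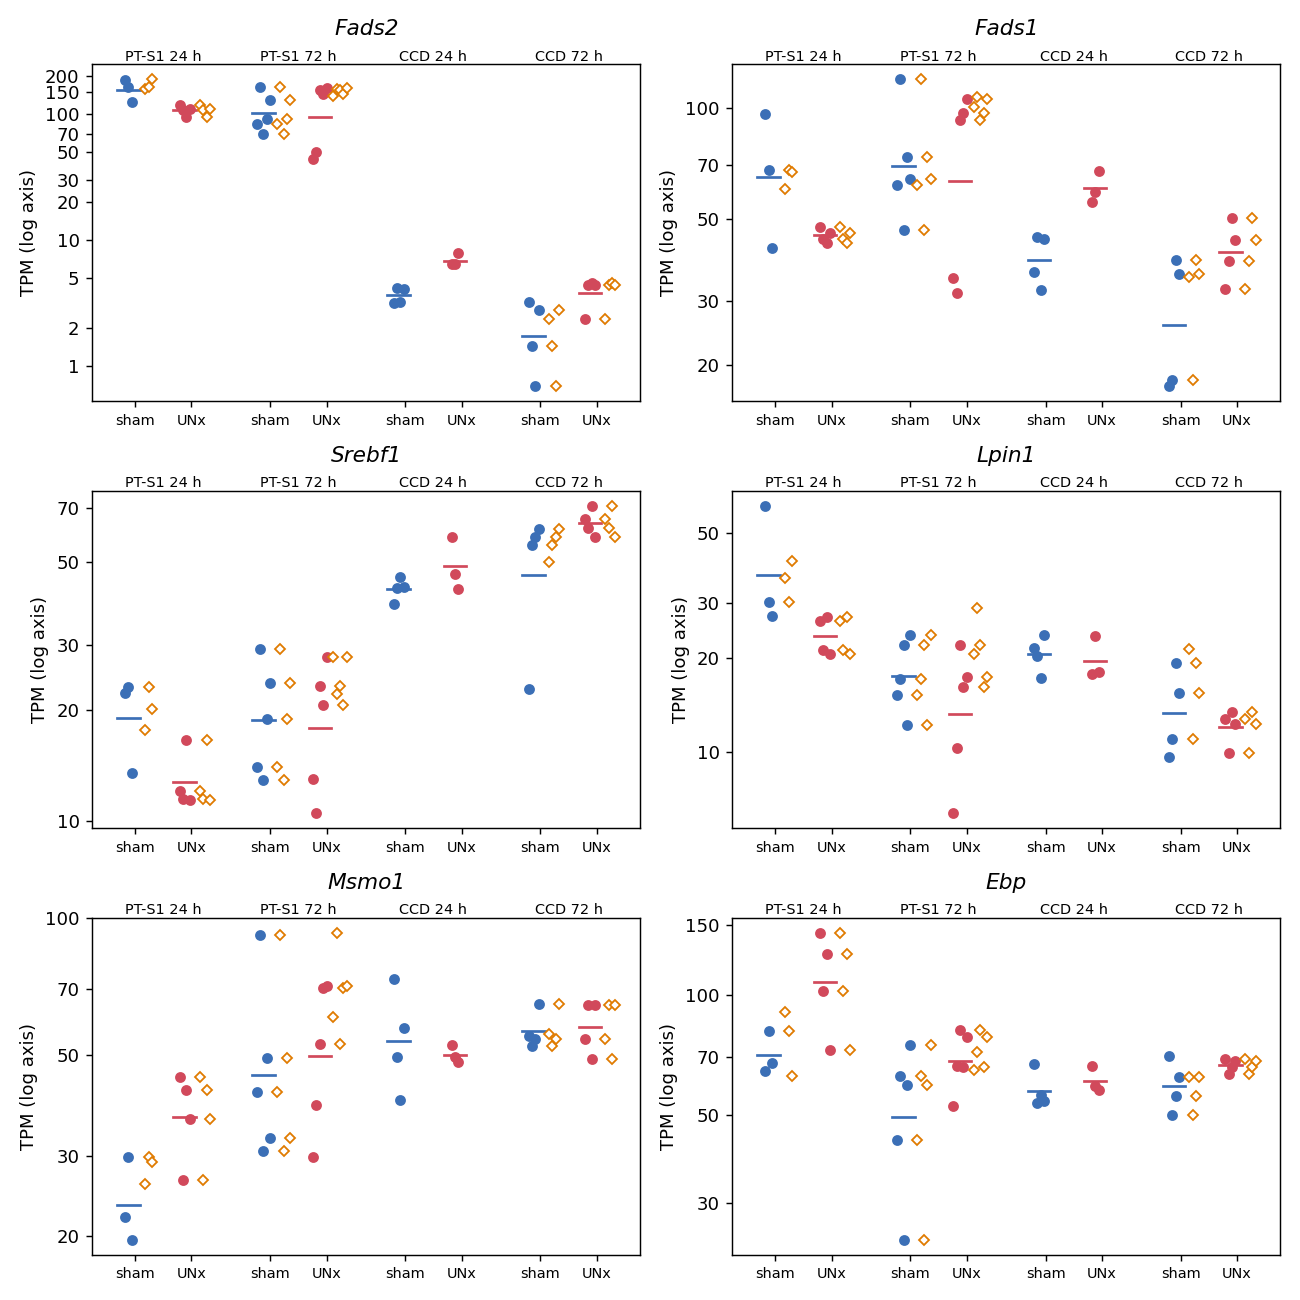
TPM of 6 genes (vertical log axis) in each animal, sham in blue and UNx in red, with bars at the geometric mean; open orange diamonds give the same animals without the libraries of low correlation, in the 3 tables that hold any. At 24 h, Fads2 runs from 93.9 to 118.5 TPM in UNx and 123.6 to 187.9 TPM in sham PT-S1, and from 6.37 to 7.79 and 3.15 to 4.17 TPM in CCD.

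The response of Fads2 to UNx differed between the segments at 24 h, the single member call among all the comparisons. The effect in CCD minus that in PT-S1 was 1.31 in log2(TPM + 1) (SE 0.21, adjusted p = 0.0366 by limma), made of 0.76 in CCD and -0.54 in PT-S1. In this comparison 15 of 10988 genes passed (0.137%), of them 1 of 31 members. The same animal numbers recur in both segments, and the labels do not say whether the same mice gave both. The fit took them as different animals, so any sharing of mice is not allowed for in these p-values. At an unadjusted p under 0.05 there were 5 members, Fads2, Fads1, Srebf1, Acat2 and Msmo1, against 15.4% of all genes. Fads1 came second, with a difference of 1.15 (SE 0.29, adjusted p = 0.1403). Without the 2 PT-S1 libraries that stood apart, 2 members passed, Fads2 with 1.43 (adjusted p = 0.00385) and Fads1 with 1.15 (adjusted p = 0.00976), beside 179 of 10945 genes (1.64%). With every library but without 1 animal at a time, the Fads2 difference ranged from 1.18 to 1.48. It stayed past the threshold in 4 of the 14 cases and missed it in 10, with adjusted p-values from 0.0529 to 0.131: without PT-S1 sham animal 1 or 2, PT-S1 UNx animal 1 or 2, CCD sham animal 1, 3 or 4, or any of the 3 CCD UNx animals. Under median-ratio scaling it was 1.12 (adjusted p = 0.0520).

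The other differences between effects gave no member past the threshold with all libraries. Between times in PT-S1, 0 of 31 members and 0 of 11455 genes passed (0%), and at an unadjusted p under 0.05 there were 0 members against 3.33% of all genes. The members with the smallest p were Fdps, which makes farnesyl diphosphate, with a difference (72 h minus 24 h) of -0.52 (SE 0.37), and Pmvk with -0.42 (SE 0.31), both at an adjusted p = 0.998 by limma. Without the 4 PT-S1 libraries that stood apart, 187 of 11443 genes passed (1.63%), among them Fads2 with a difference of 1.22 (SE 0.26, adjusted p = 0.0343) and Fads1 with 1.04 (SE 0.26, adjusted p = 0.0499), with effects below 0 at 24 h and above 0 at 72 h. Between times in CCD, 0 of 32 members and 0 of 13253 genes passed (0%), and at an unadjusted p under 0.05 there was 1 member, Insig2, against 4.96% of all genes. Insig2 gave a difference of -0.35 (SE 0.15) and Fasn 0.67 (SE 0.34), both at an adjusted p = 0.968 by limma. Between segments at 72 h, 0 of 31 members and 0 of 11035 genes passed (0%), and at an unadjusted p under 0.05 there were 0 members against 9.33% of all genes. Idi1 gave a difference (CCD minus PT-S1) of 0.65 (SE 0.31) and Mvk 0.68 (SE 0.34), both at an adjusted p = 0.495 by limma. Without the libraries that stood apart 9 of 11074 genes passed (0.0813%), none of them a member. Comparisons that share a table share its animals, so their values are not independent of each other.

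Of 32 further genes of sterol and fatty acid metabolism, 0 passed the adjusted test in any table (29 tested in PT-S1 at either time, 30 in CCD at 24 h, 31 in CCD at 72 h). At an unadjusted p under 0.05, PT-S1 had 3 higher and 3 lower genes at 24 h (2.59% and 15.2% of all genes), and 0 higher and 4 lower at 72 h (1.33% and 19.1%). The corresponding counts in CCD were 1 higher and 3 lower (5.55% and 9.97%), then 0 of either kind (4.66% and 2.82%). Without the libraries that stood apart, a setting chosen here after seeing the data, they were 0 and 4 in PT-S1 at 24 h (1.68% and 23% of all genes), 7 and 0 at 72 h (9.6% and 8.1%), and 0 and 6 in CCD at 72 h (5.53% and 8.64%), and again 0 passed the adjusted test. Abca1, which exports cholesterol from cells, had every UNx animal below every sham animal at 24 h in both segments (12.1% of all genes in PT-S1 and 9.51% in CCD): 3.62, 2.92 and 2.22 TPM in sham against 0.360, 0.922, 1.15 and 0.801 TPM in UNx PT-S1 (change -1.12, SE 0.23, adjusted p = 0.228 by limma), and 7.20, 8.87, 13.2 and 11.03 TPM against 3.91, 5.67 and 6.55 TPM in CCD (change -0.79, SE 0.22, adjusted p = 0.129). It was singled out after its values were seen. Without the 2 libraries the PT-S1 change was -1.11 (SE 0.21, adjusted p = 0.0793), again without overlap. At 72 h its groups overlapped in both segments, with all libraries and without those that stood apart.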

How the data were processed

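Tubule RNA was sequenced after a low-input amplification kit, and the authors deposited 4 tables of TPM, per the file headers. The submitters' processing notes name STAR, RSEM 1.3.3 and GRCm39. TPM keeps no depth, so the depth of each library and the counting error are unknown here. Of 69 columns, 47 matched 1 sample and 22 matched a group and animal. Libraries were averaged per animal as log2(TPM + 1), genes averaging 1 TPM or more were tested with limma 3.58.1 (R 4.3.3, trend), and p-values were adjusted by Benjamini-Hochberg over all genes tested, at 0.05. Differences between effects used all 4 groups concerned, with the animals of the groups taken as independent. The fit was tested on simulated data with added effects larger than the member changes and differences given here. How often it would find changes of their size is not known. Named genes were the 5 members with the smallest p per table, the 2 per difference, the highest and most segment-specific sham levels, and the 5 regulators; Tm7sf2, Dhcr7, Fads1 and Fads2 elsewhere were singled out after their values were seen. The members, the list of other pathway genes and the marker lists were chosen with earlier results of these data known. Whether counting used strand is not given in the sources used here. Reads of close copies (Acat2, Scd1 and Scd2, pseudogenes of Fdps and Cyp51) can be split.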

Additional observations from a re-analysis of the deposited data

Results flagged for a closer look

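Of 59 groups of 4 or 5 animals checked among the named members, 6 held 1 animal far from the others; chance gives about 1 in 20. In PT-S1, Srebf1 at 24 h was at 16.5 TPM in animal 3 of the UNx group, whose other members lay between 11.4 and 12.1 TPM, and Insig1 in sham animal 2 at 72 h was at 36.8 TPM against 12.8 to 16.6 TPM. In CCD at 72 h, Fads2 in UNx animal 1 was at 2.35 TPM against 4.36 to 4.54 TPM, and Srebf2 in UNx animal 4 was at 44.3 TPM against 47.4 to 47.6 TPM. In sham animal 1 of that table, which holds a library of low correlation, Srebf1 stood at 22.8 TPM against 55.6 to 61.7 TPM and Scap at 18.5 TPM against 42.6 to 43.8 TPM. The effect of UNx on Fads2 differed between CCD and PT-S1 at 24 h by 1.31 in log2(TPM + 1), by limma's test of that difference.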

How the results depend on the processing

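Over 69 results and 1177 alternative values, 1011 kept their side of the threshold and their direction or, for counts and medians, stayed near their value, 66 moved, 74 reversed, 11 became weaker and 15 stronger. The 74 reversals concern the changes of named genes in 18 results, none past the threshold, and the cause was not tested. The members' median change also took both signs in each table: from -0.16 to 0.27 and -0.30 to 0.28 in PT-S1 at 24 h and 72 h, and from -0.06 to 0.04 and -0.07 to 0.18 in CCD. Counts of genes with an adjusted p under 0.05 (limma) were 0, 0, 136 and 82 in PT-S1 at 24 h and 72 h and CCD at 24 h and 72 h, and 0, 0, 15 and 0 for the differences between times in PT-S1, between times in CCD, between segments at 24 h and between segments at 72 h. With TPM above 0 in at least 3 animals as the filter, PT-S1 at 24 h gave 2, CCD 1 at 24 h and 7 at 72 h, and the differences 1 (PT-S1 times), 43 (24 h) and 1 (72 h). With a mean TPM of at least 5, CCD at 72 h gave 39 and the 24 h segment difference 9. Quantile normalization gave 1 in PT-S1 at 24 h and 24 for the 24 h difference, and median-ratio scaling 1 in PT-S1 at 24 h. With arrayWeights PT-S1 gave 1426 and 1346, and the differences 376 (PT-S1 times), 1468 (24 h) and 64 (72 h). Without the libraries of low correlation PT-S1 gave 1 and 1, CCD at 72 h 129, and the differences 187, 179 and 9. With every library as a replicate the counts were 85, 18, 1027 and 150, while a random effect of animal gave 100 and 10 in PT-S1 and 485 in CCD at 24 h.

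Signs of small changes (log2) reversed as follows. Quantile normalization gave 0.093 for Srebf2 in PT-S1 at 24 h, 0.19, 0.22, 0.26 and 0.18 for Insig1, Insig2, Srebf1 and Scap in PT-S1 at 72 h, and 0.0042 and 0.010 for Insig1 and Srebf2 in CCD at 24 h. Median-ratio scaling gave 0.13 for Srebf2 in PT-S1 at 24 h, 0.063, 0.19, 0.34, 0.28, 0.065 and 0.17 for Pmvk, Insig1, Insig2, Srebf1, Srebf2 and Scap in PT-S1 at 72 h, and 0.039 for Srebf2 in CCD at 24 h. The log2 of the mean TPM gave -0.13 for Insig1 in PT-S1 at 24 h and 0.21, 0.026, 0.050 and 0.062 for Insig1, Insig2, Srebf1 and Scap at 72 h. arrayWeights gave -0.22 and -0.083 for Insig1 and Insig2 in PT-S1 at 24 h, 0.017, 0.49, 0.28, 0.47, 0.25 and 0.47 for Fasn, Insig1, Insig2, Srebf1, Srebf2 and Scap at 72 h, -0.43, -0.10 and -0.051 for Insig1, Srebf2 and Scap in CCD at 72 h, and 0.089 and 0.0081 for the Fdps and Pmvk differences between times. Without the libraries of low correlation the values were -0.095 and -0.049 for Insig1 and Insig2 in PT-S1 at 24 h, 0.027, 0.57, 0.27, 0.34, 0.25 and 0.38 for Lss, Insig1, Insig2, Srebf1, Srebf2 and Scap at 72 h, and -0.11 and -0.072 for Insig1 and Scap in CCD at 72 h. Every library as a replicate gave 0.0083 for Insig2 in PT-S1 at 72 h and -0.15 for Insig1 in CCD at 72 h, and the random effect 0.0023 and -0.089.

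Leaving out 1 animal at a time, the counts ranged from 0 to 8 in PT-S1 at 24 h, 7 to 78 in CCD at 24 h, 8 to 73 in CCD at 72 h, 0 to 1 for the CCD times, 0 to 163 for the 24 h segment difference and 0 to 1 for the 72 h one. Changes ranged from -0.27 to 0.082 for Insig1 and -0.18 to 0.076 for Srebf2 in CCD at 24 h, -0.21 to 0.37, -0.11 to 0.29 and -0.049 to 0.21 for Insig1, Scap and Srebf2 in CCD at 72 h, -0.41 to 0.42 and -0.00032 to 0.15 for Insig1 and Insig2 in PT-S1 at 24 h, and -0.30 to 0.14, -0.14 to 0.12, -0.33 to 0.041 and -0.22 to 0.11 for Insig1, Insig2, Scap and Srebf1 in PT-S1 at 72 h. Sham and UNx animals share only a number: the correlation of same-numbered animals was over 0.1 in 1 of 3, 2 of 5, 0 of 3 and 2 of 4 pairs. With a replicate block the counts were 80, 0, 0 and 3, and Srebf2 in CCD at 24 h was 0.076. TPM gives no depth, so changes of low genes such as Fads2 in CCD cannot be set against counting error.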
